A study of Homo sapiens with 24 samples.

Results

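The genes described here are 10 regulators and effectors of the epithelial-mesenchymal state, chosen by name: CDH1, ESRP1, ESRP2, GRHL2, OVOL1, ZEB1, ZEB2, SNAI1, SNAI2 and VIM. They are 10 of the 60605 genes in the count table. Of these 10, 8 were among the 22326 genes that passed a filter on low counts and were tested, and SNAI2 and VIM were not.

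Transcription was measured by PRO-seq, a nuclear run-on assay that sequences the 3' ends of RNA still held by RNA polymerase, in T47D cells, a luminal, estrogen receptor positive breast cancer line. The cells carried a degron tag (dTAG) on the endogenous TRPS1 protein, a repressive zinc finger factor of the GATA family, so that the small molecule dTAG-13 directs the protein to degradation. The 6 groups were Clone 28, Clone 35 and Clone 39, each treated for 90 minutes with 100 nM dTAG-13 or with 0.1% v/v DMSO, the vehicle. Each group had 4 libraries, from dishes treated and harvested at different times of a single day, with the DMSO and dTAG-13 dishes of a replicate number collected together. Each clone is a single cell clone, all 3 descend from an earlier puromycin-selected founder clone, and in each of them the DMSO cells carry the tag too, some TRPS1 copies being knocked out. No untagged parental library was analysed here. The dishes are cultures of the same clones, so p-values measure the spread between dishes.

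Epithelial cells hold together through E-cadherin, the product of CDH1, and keep epithelial splice forms through the RNA-binding proteins ESRP1 and ESRP2. GRHL2 and OVOL1 encode transcription factors that maintain this state, whereas ZEB1, ZEB2, SNAI1 and SNAI2 encode zinc finger repressors that bind E-box sequences in CDH1 and other epithelial genes, and VIM encodes vimentin, the intermediate filament of mesenchymal cells. ZEB1 and ZEB2 and the miR-200 family of microRNAs repress each other, which makes the choice between the states switch-like.

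Libraries held between 3226718 and 9575803 reads in genes, with a median of 5042122. Libraries of a group differed from each other by more than counting noise, with a chi-square per degree of freedom of 1.65 to 13.6 over 36 pairs. TRPS1 itself ranged from 5183 to 9296 CPM (reads scaled to the size of the library) over the 24 libraries, but the tag removes the protein and not the transcript, so this level was not used to check the labels. In Clone 28 it ran from 5183 to 7335 CPM in DMSO and 6304 to 8250 CPM with dTAG-13. The ranges were 5576 to 7832 and 6598 to 8590 CPM in Clone 35, and 6343 to 8748 and 7459 to 9296 CPM in Clone 39. Both ends were thus higher with dTAG-13 in each clone, and the ranges overlapped. The luminal markers ESR1, PGR, GATA3, FOXA1, KRT8, KRT18 and KRT19 all passed the filter and summed to between 3564 and 5875 CPM. Of 4 basal markers (KRT5, KRT14, KRT17, TP63), 1 passed, and their sum was 5.99 to 22.6 CPM. Markers of fibroblasts (2 of 6 passed), endothelium (2 of 3) and immune cells (2 of 4) summed to no more than 23.9, 8.12 and 23.4 CPM in any library. In such bulk libraries, fewer cells of a type and less RNA per cell cannot be told apart.

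The first question is which of the 10 genes T47D cells transcribe, and the answer split them into a high and a low set. To compare genes, CPM was divided by the length of the annotated gene in kilobases, and each gene was ranked among 19942 protein-coding genes, whose median was 0.577 CPM per kb. The lengths ran from 4.14 kb for SNAI2 to 211 kb for ZEB1. Reads near gene starts, which weigh more per kb in a short gene, were not separated from the rest. Ranks between short and long genes carry this limit. The 6 genes SNAI1, ESRP2, GRHL2, CDH1, ESRP1 and OVOL1 stood above this median in all libraries, and the 4 genes SNAI2, VIM, ZEB1 and ZEB2 below it. The lowest of the high set, OVOL1, was 13.3-fold above the highest of the low set, SNAI2, and no library of the one overlapped any library of the other.

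**Figure D1:**
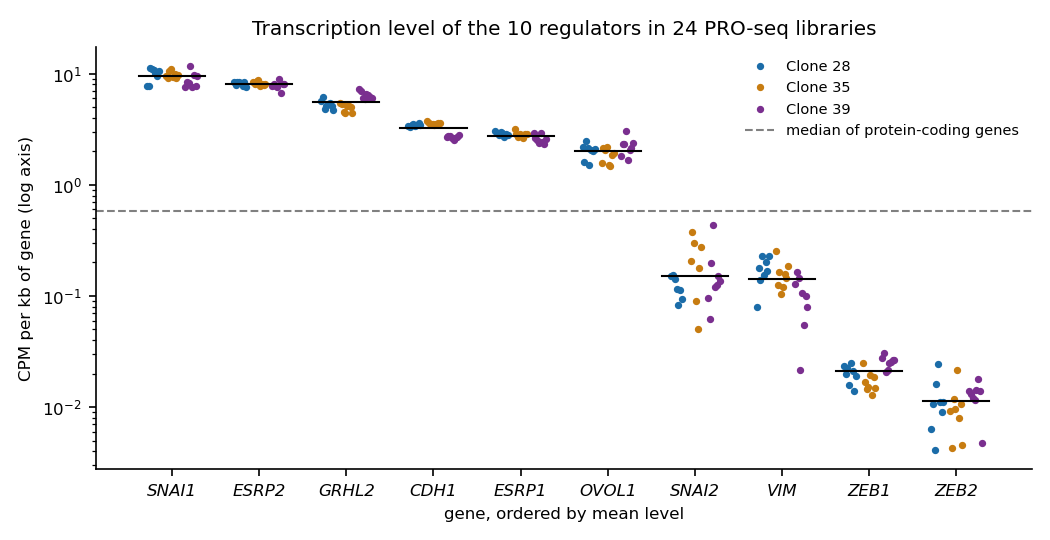
CPM per kb of gene (log axis) of each regulator in each of 24 libraries, coloured by clone; black bars are means over the libraries and the dashed line is the median of protein-coding genes, 0.577. The 2 libraries with no SNAI2 read cannot be drawn on a log axis. The gap between OVOL1 and SNAI2 is 13.3-fold.

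Among the epithelial genes, CDH1 (ENSG00000039068, chr16:68737292-68835537, plus strand, hg38) averaged 3.24 CPM per kb over the 24 libraries and lay at percentile 89.0 of protein-coding genes. ESRP2 (chr16:68229033-68238102, minus strand), which lies within 1 Mb of CDH1, averaged 8.05 CPM per kb, at percentile 97.2. Its paralog ESRP1 (chr8:94641074-94707466, plus strand) averaged 2.77 CPM per kb, at percentile 86.3. ESRP2 thus had more reads per kb than ESRP1. As the longer gene, ESRP1 gave more reads in all, with a mean of 184 CPM against 73.0 CPM for ESRP2. The noncoding RNA gene ENSG00000261469, on the strand of ESRP2 and averaging 19.4 CPM, overlaps 823 bases of ESRP2.

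GRHL2 (chr8:101492439-101669726, plus strand), a grainyhead-like factor that activates epithelial junction genes, averaged 5.54 CPM per kb and lay at percentile 95.2. Its 982 CPM made it the most read of the 10 genes. OVOL1 (chr11:65787063-65797214, plus strand), which encodes a zinc finger repressor of mesenchymal genes, averaged 2.02 CPM per kb, at percentile 79.4. In this order GRHL2 did not overlap CDH1, the next gene below it, in any library, whereas CDH1 and ESRP1, and ESRP1 and OVOL1, overlapped.

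The repressors did not form a uniform low group. SNAI1 (chr20:49982980-49988886, plus strand), whose product binds E-boxes of CDH1, had the highest density of the 10 genes, with 9.45 CPM per kb and percentile 97.8. Its libraries spanned 7.51 to 11.7 CPM per kb and overlapped those of ESRP2. SNAI2 (chr8:48917598-48921740, minus strand), which encodes the related factor Slug, had 0 to 10 reads per library and none in 2 libraries, and its mean of 0.152 CPM per kb lay at percentile 35.4. The paralogs SNAI1 and SNAI2 had median counts of 298.5 and 2.5 per library, and their CPM per kb did not overlap.

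ZEB1 (chr10:31318495-31529814, plus strand) gave 13 to 38 reads per library over a gene of 211 kb, a mean of 0.0209 CPM per kb and percentile 20.0. ZEB2 (chr2:144364364-144521057, minus strand) gave 3 to 18 reads over 157 kb, a mean of 0.0114 CPM per kb and percentile 9.74. ZEB1 and ZEB2 overlapped, as did VIM and ZEB1. VIM (chr10:17228241-17237593, plus strand) had 1 to 13 reads per library, a mean of 0.143 CPM per kb and percentile 35.1, and it overlapped SNAI2.

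The promoter windows of ZEB1 and ZEB2 are shown because these repressors had the lowest CPM per kb of the 10 genes and because TRPS1 binds GATA sequences. They come from RefSeq on GRCh38.p14 and run from 250 bases before to 50 bases after an annotated start. The windows were searched on both strands, so a match may appear as the reverse complement, for 3 motifs that do not overlap each other in these windows. GATA is the core of sites bound by GATA factors. CAGGTG is an E-box bound by SNAI and ZEB proteins. AGGTCA is the half-site of the estrogen receptor. Capitals mark the matches, which belong to the E-box in ZEB1 and to GATA in ZEB2.
ZEB1, chr10:31318966-31319265, plus strand: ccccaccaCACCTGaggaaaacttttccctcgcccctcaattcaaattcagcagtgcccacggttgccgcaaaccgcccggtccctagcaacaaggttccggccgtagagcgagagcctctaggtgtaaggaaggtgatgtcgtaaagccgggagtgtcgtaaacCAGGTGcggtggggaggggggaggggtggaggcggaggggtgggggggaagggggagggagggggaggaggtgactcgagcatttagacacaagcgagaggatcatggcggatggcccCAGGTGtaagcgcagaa
ZEB2, chr2:144520070-144520369, minus strand: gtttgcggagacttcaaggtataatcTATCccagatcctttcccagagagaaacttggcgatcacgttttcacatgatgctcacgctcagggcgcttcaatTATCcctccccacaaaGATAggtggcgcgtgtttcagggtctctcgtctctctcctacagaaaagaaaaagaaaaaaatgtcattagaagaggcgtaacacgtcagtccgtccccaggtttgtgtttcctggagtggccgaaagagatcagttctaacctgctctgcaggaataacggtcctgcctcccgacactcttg
The window at the main start of ZEB1 held 3 matches to the E-box core and 0 to GATA. Of 7 ZEB1 windows in the table, 3 others held 1 match to GATA each. The window of ZEB2 held 3 matches to GATA and 0 to the E-box core. Only the match printed as GATA there has the flanking letters of (A/T)GATA(A/G), the site the paper gives for the family. Of 35116 promoter windows of the same length, 49.7% held GATA, 20.6% held CAGGTG and 13.8% held AGGTCA, so a match to GATA is common. The window of VIM at chr10:17227991-17228290 (plus strand) held 0 matches to each motif. A match is a description of letters and not a bound site.

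The microRNAs that target ZEB1 and ZEB2 are shown because a transcript that carries some of them was measured. The mature forms from the 3' arm fall into 2 groups by seed, bases 2 to 8, given in capitals (RefSeq, GRCh38.p14).
hsa-miR-200b-3p: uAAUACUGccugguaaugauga
hsa-miR-200c-3p: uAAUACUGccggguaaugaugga
hsa-miR-429: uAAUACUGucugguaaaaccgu
hsa-miR-200a-3p: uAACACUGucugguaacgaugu
hsa-miR-141-3p: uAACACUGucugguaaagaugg
The first 3 share the seed AAUACUG and the last 2 share AACACUG. MIR200CHG, the host transcript of miR-200c and miR-141, gave 16 to 81 reads per library and passed the filter, with a mean of 8.88 CPM over the 24 libraries (5.00 to 17.0 CPM) and group means of 6.79 to 10.3 CPM. Per kb of gene, MIR200CHG averaged 7.26 CPM, at percentile 96.8 of protein-coding genes, with the limit on gene length given above. PRO-seq reads the primary transcript, so the amounts of mature microRNA were not measured.

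The pattern of the 10 genes stood among wider lists chosen for the same biology. All 30 epithelial genes of the list (junction, keratin and protease genes such as EPCAM, CLDN7, DSP and KRT18) passed the filter, and 29 of them lay above the median of protein-coding genes. Of 31 mesenchymal genes (such as FN1, CDH2, TWIST1 and COL1A1), 21 passed, and 7 lay above that median. The median percentile was 86.4 for the epithelial list and 28.5 for the mesenchymal list.

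Genes inside the members on the opposite strand showed how well the table separates strands. OVOL1-AS1, which lies within OVOL1, gave 2.20 reads per kb over all libraries against 251 for OVOL1. The antisense RNA ENSG00000260798 within CDH1 gave 2.72 reads per kb against 410 for CDH1. For ZEB1 and ZEB2, whose own density was only 2.51 and 1.38 reads per kb over all libraries, antisense genes inside them were too thin to tell.

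The main question of the design is what dTAG-13 changed within 90 minutes, and none of the 8 tested regulators passed the threshold. Over the 3 clones together, the quasi-likelihood test of edgeR, adjusted by Benjamini-Hochberg over all genes at a threshold of 0.1, called 0 of 8, while 0.551% of all 22326 genes were called. With so small a share, a count of 0 among 8 genes is near the background. At an unadjusted p under 0.05, 1 of the 8 stood (OVOL1) and 6.32% of all genes. DESeq2 also called 0 of 8. The fit with each DMSO and dTAG-13 pair of a clone and replicate number as a block called 0 of 8. It called 521 genes in all (2.33%), against 123 without the block. The smallest adjusted p among the 8 was 0.708, for OVOL1.

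CDH1 showed the tightest interval. In Clone 28 it read 333, 328, 337 and 345 CPM in DMSO replicates 1 to 4 and 330, 338, 355 and 341 CPM with dTAG-13. In Clone 35 it read 366, 352, 348 and 343 CPM in DMSO and 339, 345, 356 and 352 CPM with dTAG-13. In Clone 39 it read 266, 272, 272 and 258 CPM in DMSO and 248, 261, 265 and 277 CPM with dTAG-13. The DMSO and dTAG-13 libraries overlapped in all 3 clones. The log2 fold change over the clones was -0.0048 with a 95% interval of -0.058 to 0.049, and 5 of 12 DMSO and dTAG-13 pairs were higher with dTAG-13.

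The intervals were also narrow for the splicing regulators and GRHL2. ESRP1 had a log2 fold change of -0.052 (95% interval -0.13 to 0.024) and ESRP2 one of -0.036 (-0.11 to 0.041). GRHL2 had a log2 fold change of -0.043 (-0.14 to 0.050), with 5 of 12 pairs higher. For SNAI1 the value was -0.0059 (-0.15 to 0.14), with 4 of 12 pairs higher.

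OVOL1 had the largest fold change among the 6 genes of the high set. It read 22.1, 16.1, 25.2 and 21.8 CPM in DMSO replicates 1 to 4 of Clone 28 and 15.3, 20.7, 20.5 and 21.2 CPM with dTAG-13. In Clone 35 it read 16.0, 21.6, 21.0 and 22.3 CPM in DMSO and 15.3, 14.9, 18.6 and 19.5 CPM with dTAG-13. In Clone 39 it read 18.6, 23.4, 23.7 and 31.0 CPM in DMSO and 16.9, 20.9, 21.9 and 23.9 CPM with dTAG-13. The groups overlapped in every clone, but the dTAG-13 library was lower in 11 of 12 pairs, the exception being replicate 2 of Clone 28. The log2 fold change was -0.19 (SE 0.084), with an unadjusted p of 0.0293 and an adjusted p of 0.708 in edgeR's quasi-likelihood test, or 0.170 with the replicate block. It therefore failed the correction over all genes.

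The low members could not be measured well enough to show a small change. ZEB1 had a log2 fold change of -0.019 with a 95% interval of -0.27 to 0.23, and ZEB2 one of 0.24 with -0.27 to 0.75. Without the filter, over 53337 genes, SNAI2 had -0.49 (SE 0.35, adjusted p = 0.800) and VIM -0.0020 (SE 0.26, adjusted p = 0.999) in the same edgeR test. With 0 to 10 reads of SNAI2 and 1 to 13 of VIM per library, no change of either was detected.

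**Figure D2:**
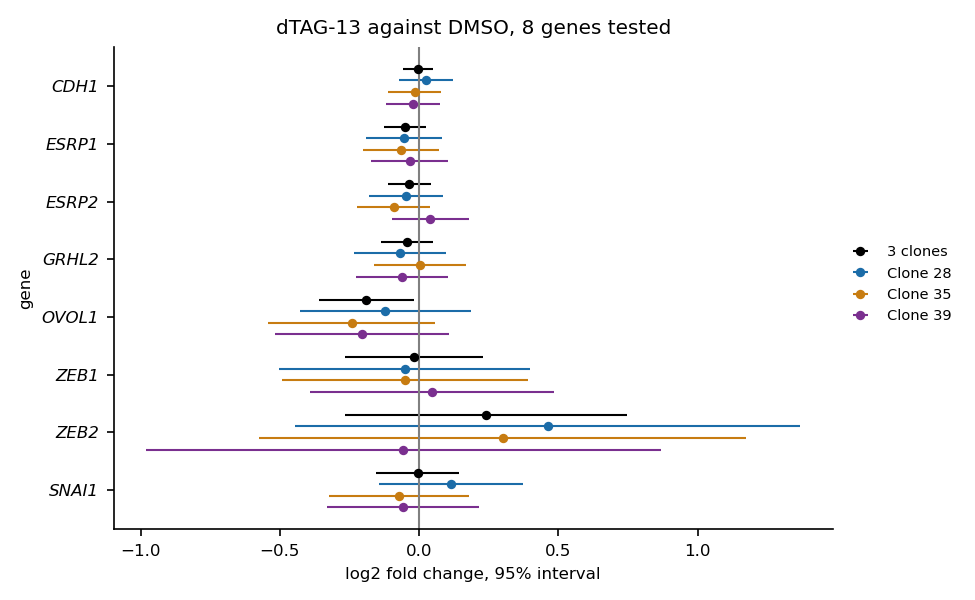
Log2 fold change of dTAG-13 against DMSO for the 8 regulators tested, over the 3 clones (black) and in each clone, with 95% intervals from edgeR. The point of OVOL1 over the clones is at -0.19 and the intervals of ZEB2 are the widest.

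Within each clone the test called 0 of 8 as well, against 0.0537% of all genes in Clone 28, 0% in Clone 35 and 0% in Clone 39. At an unadjusted p under 0.05 the count was 0 of 8 in each clone, beside 1078, 646 and 754 of all genes, and DESeq2 also called 0 of 8. With the replicate block it was again 0 of 8, against 1.18%, 0.0941% and 0.0717% of all genes. OVOL1 had log2 fold changes of -0.12, -0.24 and -0.21 in Clones 28, 35 and 39. ZEB2 had 0.46, 0.30 and -0.057, each with an SE of 0.43 to 0.45. The test of a difference in response between the clones called 0 of 8 (0% of all genes, with 407 at an unadjusted p under 0.05), and DESeq2 and the block (0.00448% of all genes) again called 0 of 8.

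The wider lists held few calls, against 0.551% of all genes. Of the 30 epithelial genes, 1 fell with dTAG-13 and 0 rose, the gene being KRT19, a luminal keratin, with a log2 fold change of -0.13 (SE 0.030, adjusted p = 0.0346 in edgeR's test). The KRT19 call was lost without Clone 28, 35 or 39 (adjusted p = 1.00, 0.308 and 0.114), as was that of TGFB2, named next (0.989, 0.255 and 0.424). With the replicate block the adjusted p in edgeR's test was 4.62e-04 for KRT19 and 0.00647 for TGFB2. The block called 2 of the 30 epithelial genes, against 2.33% of all genes. Of the 21 tested mesenchymal genes, 0 were called by edgeR, also with the replicate block. Of 15 tested genes of TGF-beta signalling and its corepressors, a pathway that induces ZEB and SNAI genes, 1 rose, the ligand TGFB2, by 0.19 (SE 0.047, adjusted p = 0.0661). The TGFB2 call was lost, with adjusted p between 0.107 and 0.145, when any of 9 libraries was left out. These were DMSO replicates 2 and 3 and dTAG-13 replicates 2 and 3 of Clone 28, replicate 3 of either treatment of Clone 35, and DMSO replicates 2 and 4 and dTAG-13 replicate 3 of Clone 39. The median log2 fold change was -0.035 for the epithelial list, -0.063 for the mesenchymal list and -0.063 for the TGF-beta list, beside -0.0018 for all genes. Of 8 tested genes that overlap a member on the same or the opposite strand, 0 were called, and their median was -0.061.

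The next question is how the clones differed before treatment, and the regulators with the clearest differences were CDH1 and GRHL2. Across the DMSO libraries of the 3 clones, edgeR's quasi-likelihood F-test called 2 of 8 regulators, while 28.5% of all genes were called. The regulators' share was thus near the background. CDH1 had an adjusted p of 6.69e-08 and GRHL2 one of 0.00111. With the replicate block ESRP1 was called too (adjusted p = 0.0109, against 0.140 without it), making 3 of 8 beside 39.7% of all genes. Leaving out DMSO or dTAG-13 replicate 1 of Clone 39 also brought ESRP1 past the threshold (0.0304 and 0.0918), and leaving out DMSO replicate 1 of Clone 35 brought ZEB1 past it (0.0641, against 0.180).

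CDH1 was lower in Clone 39. Its DMSO level was 336 ± 7.04 CPM in Clone 28, 352 ± 9.80 CPM in Clone 35 and 267 ± 6.99 CPM in Clone 39 (SD, n = 4 each). The highest DMSO library of Clone 39, at 272 CPM, lay below the lowest of Clone 28, at 328 CPM, and the dTAG-13 libraries of Clone 39 lay between 248 and 277 CPM. All 8 libraries of Clone 39 therefore stood below all 16 libraries of the other clones. The log2 difference was -0.33 (SE 0.048, adjusted p = 1.78e-06) from Clone 28 and -0.40 (SE 0.047, adjusted p = 5.07e-08) from Clone 35 in edgeR's test.

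GRHL2 was higher in Clone 39. In DMSO replicates 1 to 4 it read 1005, 1081, 849 and 900 CPM in Clone 28. It read 962, 954, 803 and 782 CPM in Clone 35 and 1281, 1242, 1062 and 1048 CPM in Clone 39. Clone 39 lay above Clone 35 without overlap, and it overlapped Clone 28 only through replicate 2 of the latter. The log2 difference was 0.27 (SE 0.080, adjusted p = 0.0155) from Clone 28 and 0.40 (SE 0.080, adjusted p = 4.77e-04) from Clone 35 in edgeR's test. Clone 35 stood below Clone 28 by 0.13, which passed the threshold only with the replicate block (adjusted p = 0.0199 against 0.513, with 11.9% of all genes called).

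**Figure D3:**
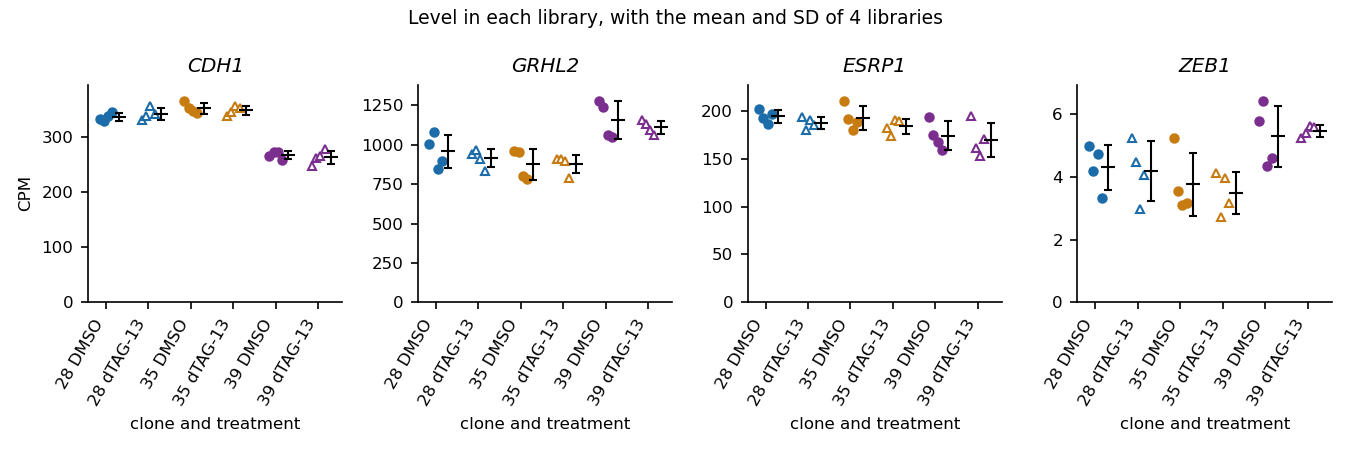
CPM of CDH1, GRHL2, ESRP1 and ZEB1 in each library by clone and treatment (filled circles DMSO, open triangles dTAG-13), with the mean and SD of 4 libraries beside them. CDH1 in Clone 39, at 248 to 277 CPM, lies below all other libraries, and GRHL2 in Clone 39 reaches 1281 CPM.

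Pair by pair, the comparison of Clone 35 with Clone 28 called 0 of 8 regulators, against 5.25% of all genes. At an unadjusted p under 0.05 it was 0 of 8, and DESeq2 called 0 of 8. The comparison of Clone 39 with Clone 28 called 3 of 8, against 26.7% of all genes, with GRHL2 higher (12.4% of all genes) and CDH1 and ESRP1 lower (14.3%). With the replicate block it was also 3 of 8, against 35.2%. The comparison of Clone 39 with Clone 35 called 3 of 8, against 22.6% of all genes, with GRHL2 and ZEB1 higher (9.64%) and CDH1 lower (12.9%). With the replicate block it called 5 of 8, against 30.5% of all genes, adding ESRP1 and OVOL1. The last 2 comparisons share the libraries of Clone 39.

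ESRP1 was called in the comparison of Clone 39 with Clone 28 near the threshold. Its DMSO libraries read 202, 193, 186 and 197 CPM in Clone 28, 211, 191, 180 and 188 CPM in Clone 35, and 194, 175, 168 and 159 CPM in Clone 39. The groups overlapped through replicate 1 of Clone 39. The log2 difference from Clone 28 was -0.16 (SE 0.067) with an adjusted p of 0.0910 in edgeR's test, or 0.00833 with the replicate block. The call was lost without DMSO replicate 1, 2 or 4 of Clone 28 (adjusted p = 0.188, 0.104 and 0.146) or replicate 2, 3 or 4 of Clone 39 (0.122, 0.171 and 0.274), and DESeq2 gave 0.114. In edgeR it was also lost with other size factors (0.105), with no filter (0.127) and in the 12 DMSO libraries alone (0.114). The difference from Clone 35 was -0.15, with an adjusted p of 0.144, or 0.0194 with the block and 0.0389 without replicate 1 of Clone 39.

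ZEB1 was likewise near the threshold. In DMSO it gave 20, 20, 22 and 17 reads in Clone 28, 22, 21, 20 and 23 in Clone 35, and 29, 25, 16 and 23 in Clone 39. This was 3.77 ± 1.00 CPM in Clone 35 and 5.29 ± 0.984 CPM in Clone 39 (SD, n = 4 each), and the groups overlapped. The log2 difference of Clone 39 from Clone 35 was 0.53 (SE 0.22, adjusted p = 0.0926 in edgeR's test). It was no longer called without any of 7 libraries, with an adjusted p of 0.235 and 0.232 without DMSO replicates 3 and 4 of Clone 35 and 0.212 and 0.252 without DMSO replicates 1 and 2 of Clone 39. The other 3 were DMSO replicate 2 of Clone 35 (0.146) and dTAG-13 replicates 4 of Clone 28 (0.101) and 2 of Clone 39 (0.101). DESeq2 gave 0.167, and edgeR gave 0.134 in the 12 DMSO libraries alone and 0.307 with no filter on low counts. With each clone averaged over both treatments, which adds the dTAG-13 libraries, the difference was 0.58 with an adjusted p of 0.00375.

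ESRP2, SNAI1 and ZEB2 passed in none of the 3 pairs of clones. ESRP2 ranged only from 68.5 to 80.0 CPM over the 12 DMSO libraries. Its log2 difference of Clone 39 was -0.092 from Clone 28 and -0.12 from Clone 35, whose 95% interval ran from -0.26 to 0.0096. SNAI1 was 52.9 ± 10.9 CPM in Clone 39, 55.5 ± 11.6 CPM in Clone 28 and 59.1 ± 4.91 CPM in Clone 35 (SD, n = 4 each), which overlapped. Without DMSO replicate 4 of Clone 39, the library with 68.9 CPM, SNAI1 was called lower in Clone 39 than in Clone 35 (-0.31, adjusted p = 0.0567, against -0.16 and 0.459 with it). ZEB2 read 1.99 ± 0.174 CPM in Clone 39, 1.47 ± 0.841 CPM in Clone 28 and 1.37 ± 0.498 CPM in Clone 35. OVOL1 read 24.2 ± 5.11 CPM in Clone 39 and 20.2 ± 2.88 CPM in Clone 35, a log2 difference of 0.24 with an adjusted p of 0.297, or 0.0869 with the replicate block.

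**Figure D4:**
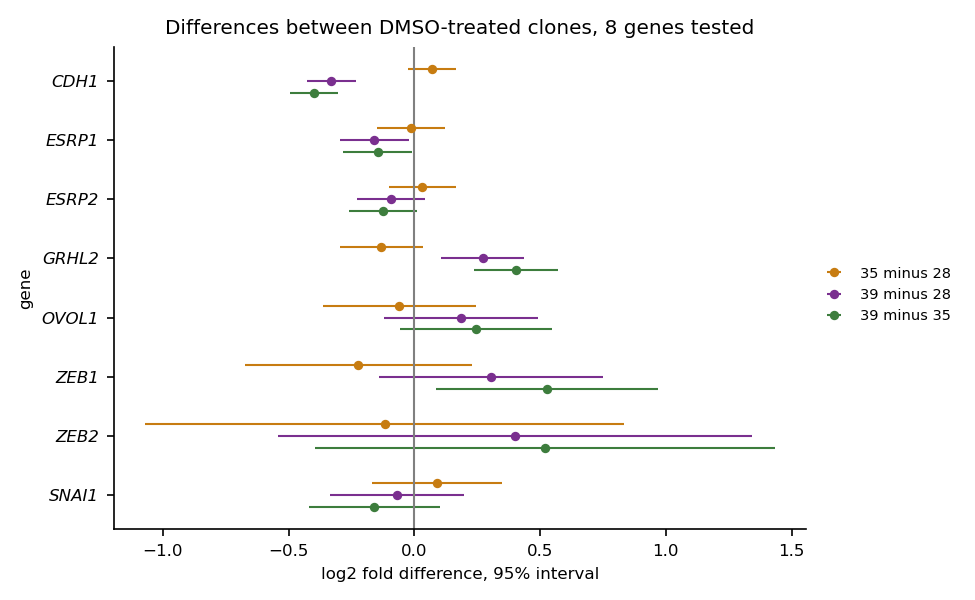
Log2 difference between the DMSO libraries of each pair of clones for the 8 regulators tested, with 95% intervals from edgeR. The intervals of CDH1 for Clone 39 lie below 0 and those of GRHL2 above 0.

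SNAI2 and VIM, left out by the filter, were compared without it. VIM had 3 to 11 reads in the DMSO libraries of Clone 28, 7 to 10 in Clone 35 and 1 to 6 in Clone 39, and its F-test over the clones gave an adjusted p of 0.746 in edgeR. SNAI2 gave an adjusted p of 0.673. No difference in VIM was detected, with SEs of 0.41 to 0.47 on the log2 scale between pairs of clones.

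The clone differences reached the wider lists. For Clone 39 against Clone 35, 12 of the 30 epithelial genes were lower and 0 higher, beside 12.9% and 9.64% of all genes. These included the tight junction gene CLDN7 (log2 difference -0.90, SE 0.11, adjusted p = 1.24e-07), the keratin KRT18 (-0.50, SE 0.084, adjusted p = 2.68e-05), the desmosome gene DSP (-0.39, SE 0.075, adjusted p = 1.63e-04) and CTNNB1, which encodes the catenin bound to E-cadherin (-0.34, SE 0.056, adjusted p = 1.44e-05). Against Clone 28, 8 were lower and 2 higher, beside 14.3% and 12.4% of all genes, and one of the latter was GRHL3, a relative of GRHL2 (0.72, SE 0.12, adjusted p = 2.63e-05). The median log2 difference of the list was -0.079 against Clone 28 and -0.10 against Clone 35, beside -0.0015 and 0.0015 for all genes.

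Of the 21 tested mesenchymal genes, 7 were higher and 3 lower in Clone 39 than in Clone 28, and 6 higher and 2 lower than in Clone 35. Of all genes 12.4% were higher and 14.3% lower in the first comparison, and 9.64% and 12.9% in the second. KLF8, a repressor of CDH1, was higher by 0.91 (SE 0.097, adjusted p = 7.27e-09) than in Clone 28, at 93.0 ± 6.57 against 49.1 ± 7.25 CPM. FN1, which encodes fibronectin, was higher by 0.80 (SE 0.18, adjusted p = 0.00112). S100A4 went the other way, by -0.68 (SE 0.19, adjusted p = 0.00685). The median of the mesenchymal list was 0.31 against Clone 28 and 0.21 against Clone 35.

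Of the 15 tested TGF-beta genes, 7 were higher and 2 lower in Clone 39 than in Clone 28, and 6 higher and 2 lower than in Clone 35, beside the same shares of all genes. The co-receptor TGFBR3 had the largest difference of those named, at 118 ± 9.88 CPM in Clone 39 against 7.16 ± 1.65 CPM in Clone 28 (log2 difference 4.04, SE 0.14, adjusted p = 5.18e-21). TGFB2 stood at 81.5 ± 5.63 against 37.0 ± 3.99 CPM (1.14, SE 0.083, adjusted p = 1.01e-12). CTBP2, a corepressor that ZEB proteins recruit, was lower, with a log2 difference of -0.33 (SE 0.062, adjusted p = 9.27e-05). For Clone 35 against Clone 28 the calls were 2 of 30 epithelial, 1 of 21 mesenchymal and 1 of 15 TGF-beta genes, against 5.25% of all genes.

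Some sums of markers of other cell types also differed between these single cell clones. The basal markers summed to 5.99 to 9.52 CPM in the DMSO libraries of Clone 39, 12.4 to 16.9 CPM in Clone 28 and 15.3 to 18.3 CPM in Clone 35. TP63 carried this sum, with a mean of 13.7 CPM over all libraries, while KRT5, KRT14 and KRT17 averaged 0.072, 0.18 and 0.18 CPM. The endothelial markers summed to no more than 4.99 CPM in Clone 39, 6.02 to 6.70 CPM in Clone 28 and 6.20 to 7.88 CPM in Clone 35. The immune markers summed to 10.8 to 14.4 CPM in Clone 39, 17.7 to 23.4 CPM in Clone 28 and 16.6 to 21.9 CPM in Clone 35, mostly from CD68, with a mean of 14.1 CPM over all libraries. In DMSO, Clone 39 was thus below the other clones without overlap for these 3 sets. The fibroblast markers summed to 18.0 to 23.9 CPM in Clone 39, 15.1 to 16.3 CPM in Clone 28 and 14.5 to 21.2 CPM in Clone 35. None of these markers was at 0 in all libraries, and their part in the clone differences was not tested.

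Genes near CDH1 and GRHL2 were examined to see whether a whole stretch of chromosome differed with them. This was chosen after the clone differences were seen. Within 1 Mb of CDH1, 63 tested genes had a median log2 difference of 0.077 between Clones 39 and 28, with 10 higher and 2 lower, while CDH1 stood at -0.33. Within 1 Mb of GRHL2, 21 tested genes had a median of 0.17, with 7 higher and 0 lower, beside 0.27 for GRHL2. Over all genes the median was -0.0015, with 12.4% higher and 14.3% lower. For Clone 39 against Clone 35 the neighbours of CDH1 had a median of 0.070, with 10 higher and 1 lower, beside -0.40 for CDH1. Those of GRHL2 had a median of 0.057, with 4 higher and 1 lower, beside 0.40 for GRHL2. Over all genes the median was 0.0015, with 9.64% higher and 12.9% lower. DNA copy number was not measured, and its part in these differences was not tested.

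Replicates were treated and harvested at different times of a single day, and 4 of the 8 tested regulators were called for the replicate number. With the 6 combinations of clone and treatment held fixed, edgeR's quasi-likelihood F-test called 4 of 8, against 37.2% of all genes. Among so few genes this count is near the background. DESeq2 also called 4 of 8, but 5239 genes in all against 8306. The 4 called by edgeR were GRHL2 (adjusted p = 2.19e-07), OVOL1 (0.00150), ESRP1 (0.0124) and SNAI1 (0.0815).

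GRHL2 averaged 1043 ± 145 and 1047 ± 126 CPM in replicates 1 and 2, and 935 ± 117 and 903 ± 125 CPM in replicates 3 and 4 (SD, n = 6 each). In all 6 combinations of clone and treatment, replicates 3 and 4 were below replicate 1. Their log2 differences from replicate 1 were -0.15 (SE 0.031, adjusted p = 3.22e-04) and -0.21 (SE 0.031, adjusted p = 2.85e-06) in edgeR's test. Between libraries of a group GRHL2 varied by 8.60% (coefficient of variation), where counting alone would give 1.42%.

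OVOL1 averaged 17.4 ± 2.63 CPM in replicate 1, 19.6 ± 3.35 in replicate 2, 21.8 ± 2.33 in replicate 3 and 23.3 ± 4.03 in replicate 4 (SD, n = 6 each). Replicate 3 was above replicate 1 in 6 of 6 combinations and replicate 4 in 5 of 6. The log2 difference of replicate 4 from replicate 1 was 0.42 (SE 0.094, adjusted p = 4.42e-04 in edgeR's test). For comparison, the log2 fold change of OVOL1 between treatments was -0.19.

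ESRP1 averaged 196 ± 9.68 CPM in replicate 1, and 179 ± 11.7, 178 ± 14.8 and 182 ± 14.1 CPM in the others (SD, n = 6 each). SNAI1 averaged 62.5 ± 4.67 CPM in replicate 4 and 51.5 ± 7.66, 54.0 ± 5.76 and 55.3 ± 8.00 CPM in replicates 1, 2 and 3. The call of SNAI1 was lost, with adjusted p between 0.100 and 0.176, when any of 12 libraries was left out. These were DMSO replicates 1 and 4 and dTAG-13 replicate 2 of Clone 28, DMSO replicates 1, 2 and 4 and dTAG-13 replicate 3 of Clone 35, and DMSO replicates 1, 2 and 4 and dTAG-13 replicates 1 and 4 of Clone 39. CDH1 was not called (adjusted p = 0.710 in edgeR's test), with means of 314 to 322 CPM. Its variation within groups was 2.90%, close to the 2.44% of counting alone, the lowest variation of the 10 genes.

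**Figure D5:**
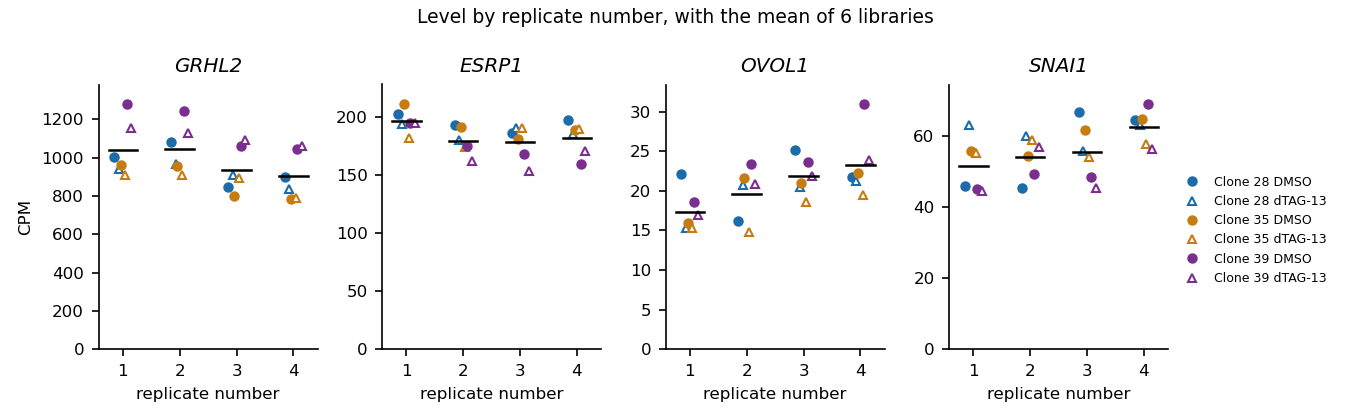
CPM of GRHL2, ESRP1, OVOL1 and SNAI1 by replicate number, with 6 libraries per number (filled circles DMSO, open triangles dTAG-13, coloured by clone) and their mean as a bar. GRHL2 averages 1043 CPM in replicate 1 and 903 CPM in replicate 4, and OVOL1 17.4 and 23.3 CPM.

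ESRP2, ZEB1 and ZEB2 were not called for the replicate number, with adjusted p of 0.460, 0.346 and 0.307. ZEB1 and ZEB2 varied within groups by 18.2% and 47.3%, where counting alone would give 21.3% and 33.3%. Without the filter SNAI2 gave an adjusted p of 0.0731, under the threshold of 0.1. This rested on 0 to 2 reads in the 6 libraries of replicate 1 and 2 to 9 in those of replicate 4. VIM gave 1.00 in the same edgeR test.

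The lists held 11 of 30 epithelial, 4 of 21 mesenchymal and 7 of 15 TGF-beta genes called for the replicate number, against 37.2% of all genes. The epithelial share, 36.7%, was near the background. OVOL2, the paralog of OVOL1, averaged 133, 145, 159 and 155 CPM in replicates 1 to 4 (adjusted p = 5.30e-06 in edgeR's test). MIR200CHG averaged 10.5, 10.9, 6.91 and 7.29 CPM (adjusted p = 2.12e-04), and its call was lost in the 12 DMSO libraries alone (0.154). SKIL, an inhibitor of SMAD signalling, averaged 114 CPM in replicate 1 and 90.2, 88.8 and 86.6 CPM in the others (adjusted p = 3.56e-11).

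Of the 8 tested members, ZEB1, ZEB2 and OVOL1 had the widest range over the 6 group means, at 0.61, 0.51 and 0.48 on the log2 CPM scale. The genes whose centred group means came closest to those of ZEB1 were EFEMP1, SCML2 and ENSG00000254039, with root mean square differences of 0.018, 0.031 and 0.036 over 6 groups. For OVOL1 they were DPF3, DPM3 and ENSG00000260949 (0.024, 0.025 and 0.030), and for ZEB2 LINC02463, ENSG00000284747 and CBX3P2 (0.026, 0.049 and 0.056). Over only 6 points this likeness is a description.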

How the data were processed

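The 24 PRO-seq libraries (3 clones, 2 treatments, 4 replicates) took their groups from the sample titles. Per the labels, the authors ligated an adapter with a unique molecular identifier, and per the study's methods they removed duplicates by it, removed ribosomal reads, aligned the rest and used bedtools to count reads per gene. The submitters' processing notes name cutadapt 1.8.1, Bowtie2 2.4.4, SAMtools 1.9 and hg38. The authors deposited these as raw counts, whole reads per gene and library. The annotation, the counted stretch of each gene and the strand setting are not given in the sources used here. Names and places came from GENCODE on hg38, which held 60463 of the 60605 identifiers, and 7268 genes had no read.

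Tests used edgeR 4.0.16 in R 4.3.3 (filterByExpr on 6 groups with a minimum count of 10, TMM scaling, robust quasi-likelihood fits), and p-values were adjusted by Benjamini-Hochberg over all 22326 genes at 0.1. CPM uses TMM-scaled library sizes, and log2 CPM a prior count of 2. The treatment model had clone and treatment, clone comparisons had 6 groups with a shared spread, and the replicate number was tested as a factor without order. The labels pair libraries by number through shared harvest times. Same-number libraries of a clone deviated together (mean correlation 0.185, from 0.0926 to 0.318 over 12 pairs). So did same-number DMSO libraries of different clones (mean 0.231, from 0.135 to 0.352 over 12 pairs). Fits with a replicate block were therefore run as well. For treatment the block was the pair of libraries of a clone and number, and for clone comparisons it was the number alone. Intervals are 95% and use the fit's standard error. Other alternatives were DESeq2 1.42.0, other size factors, other filters and leaving out libraries or clones. The scripts were tested on simulated data.

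The 10 genes and all lists were chosen with earlier results of these data known. All 10 genes are named, and of each list at most the 5 called genes with the smallest p in a comparison. Genes resembling a member are the 3 with the smallest root mean square difference of centred group means, for the 3 members of widest range. Promoter entries were at hand for ZEB1, ZEB2 and VIM. Signal tracks were not used here.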

Additional observations from a re-analysis of the deposited data

Results flagged for a closer look

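In 4 of 60 sets of 4 libraries, 1 library stood far from the other 3 by Dixon's ratio at its 95% limit, where chance alone would give about 3. GRHL2 read 790.5 CPM in dTAG-13 replicate 4 of Clone 35, while the other 3 libraries read 896 to 911 CPM. OVOL1 read 15.3 CPM in dTAG-13 replicate 1 of Clone 28, against 20.5 to 21.2 CPM. In the same library ZEB2 read 3.82 CPM from 16 reads, against 1.41 to 1.74 CPM. SNAI2 read 0 CPM in DMSO replicate 1 of Clone 28, against 0.589 to 0.645 CPM from 3 reads in each of the other 3.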

How the results depend on the processing

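In all treatment comparisons, 0 regulators were called under every alternative run (other size factors, filters, DESeq2, the replicate block, leaving out each library or clone). CDH1 and GRHL2 were called in Clone 39 against either other clone under each of these that applies. Averaging clones over both treatments gave 4 regulators over the clones, beside 9714 of all genes against 6361 without averaging. For Clone 39 against Clone 35 it gave 5, beside 7633 of all genes against 5035. The replicate block raised the calls of regulators from 0 to 1 for Clone 35 against Clone 28, beside 2664 of all genes against 1173. For Clone 39 against Clone 35 it raised them from 3 to 5, beside 6814 of all genes against 5035. Beyond these and the calls given beside them, the block changed no call of a regulator. For all genes, the treatment calls of the 3 clones together went from 123 to 521 with the block, to 197 with no filter, to 1 without Clone 28 and to 37 without Clone 35 or Clone 39, and spanned 66 to 149 on leaving out a library. Those of Clone 28 went from 12 to 263 with the block, 87 with no filter, 23 with at least 10 counts in every library, 34 in DESeq2 and 7 with other size factors, and spanned 2 to 28. DESeq2 called 5239 genes for the replicate number, against 8306. The block also moved Clone 35 from 0 to 21, Clone 39 from 0 to 16 and Clone 35 against Clone 28 from 1173 to 2664. Several uncalled values near 0 changed sign, and the cause was not tested. For CDH1 the treatment value became 0.0019 without Clone 35, 0.0051 without Clone 39 and 0.00058 in DESeq2. For SNAI1 it became 0.033 and 0.018 without Clones 35 and 39, and averaging over treatments gave -0.0036 for Clone 35 against Clone 28. On leaving out each library, the treatment values over the clones spanned -0.013 to 0.0038 (CDH1), -0.050 to 0.032 (ZEB1) and -0.039 to 0.041 (SNAI1). In Clone 28 ZEB1 spanned -0.16 to 0.091. In Clone 35 CDH1 spanned -0.027 to 0.0038, GRHL2 -0.046 to 0.053, ZEB1 -0.13 to 0.11 and ZEB2 -0.14 to 0.57. In Clone 39 CDH1 spanned -0.052 to 0.0047, ESRP1 -0.11 to 0.027, ESRP2 -0.023 to 0.11, ZEB1 -0.028 to 0.14, ZEB2 -0.29 to 0.28 and SNAI1 -0.13 to 0.10. For Clone 35 against Clone 28 in DMSO, ESRP1 spanned -0.068 to 0.0068, ESRP2 -0.0013 to 0.047, OVOL1 -0.18 to 0.024, ZEB2 -0.37 to 0.30 and SNAI1 -0.0082 to 0.18. For Clone 39 against Clone 28, SNAI1 spanned -0.23 to 0.030. Depth limits ZEB1, ZEB2, SNAI2 and VIM, none of which exceeded 38 reads in a library.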
